A study of Mus musculus with 5 samples.

Results

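The 37 genes described here encode adhesion molecules of the neuronal surface, namely 13 cadherins, 9 protocadherins, 6 contactins, 3 contactin-associated proteins, 4 members of the L1 family, and 2 neural cell adhesion molecules. They were taken by name from 19938 genes with a probe set that carries a single gene symbol, and all 37 were found. No threshold on the signals defines this list of families, but it was chosen with earlier results of these data known. Of the 37 genes, 35 reached the median signal of an array in at least 1 array, as did 12632 of all genes. *Pcdh18* and *Cntn5* stayed below the median in every array and were left out of the counts. *Cdh9* and *Pcdh19* passed through 1 array alone, so a difference was built into their selection.

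The signals come from ICR mice at postnatal day 24 (PD24), in which L2/3 neurons had been electroporated in utero with pCAGGS-tdTomato. Green RetroBeads, a retrograde tracer, were injected 3 days before collection into the primary motor cortex (M1) to mark long association neurons, or into the contralateral primary somatosensory cortex (S1) to mark callosal neurons. Labeled S1 neurons were cut out by laser microdissection, about 1000 per group by the labels, and each group was read on 1 GeneChip Mouse Gene 1.0 ST Array. The 5 groups are association L2/3, association L5, association L6b, callosal L2/3, and callosal L5. The sources used here do not say how many animals stand behind a group.

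A signal below is the deposited log2 signal of a probe set minus the median of its array, and a difference is one such signal minus another of the same gene. The level of one gene is not set against that of another, since probe sets differ in brightness. Each group has a single array, so replicate error is unknown, no test was possible, and a change of at least 2-fold (1 log2) is a rule of size. In pooled cells, fewer cells of a type that express a gene and less RNA per cell cannot be told apart.

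Cadherins are calcium-dependent adhesion proteins that bind cadherins of the facing cell and are tied to actin by catenins. Type II cadherins and delta-protocadherins are known for patchy expression over cortical layers and areas, and combinations of them mark neurons that sort together or connect. Contactins are immunoglobulin-type proteins held in the membrane by a lipid anchor, and with contactin-associated proteins and L1-type proteins they organize axons, nodes of Ranvier, and growing dendrites.

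Markers of L6b and L2/3 were highest in the arrays of those layers, while those of L5 were not particular to L5. All 5 L6b markers (*Ccn2*, also named *Ctgf*, *Cplx3*, *Nr4a2*, *Nxph4*, and *Kcnab1*) were highest in association L6b. The summed level of 5 L2/3 markers (log2 of their summed linear signals over the array median) was 6.88 and 6.62 in association and callosal L2/3, against 3.15 to 4.62 in deep layers. For 5 L5 markers the sum was 6.40 and 6.37 in association and callosal L5, but 6.27 in association L6b, and it was 4.83 and 4.17 in the L2/3 arrays. In association L6b this sum came mostly from *Pcp4* (6.16), and the other L5 markers lay between 0.32 and 0.80 there. *Fezf2* and *Rbp4* were highest in an L5 array, *Etv1* in association L2/3, and *Pcp4* and *Bcl11b* in association L6b. For 6 myelin markers the sum was 3.41 and 3.48 in these L2/3 arrays, 4.54 in callosal L5, 5.39 in association L5, and 5.50 in association L6b. The sum of 6 GABAergic markers was 3.79 in association L6b and 5.18 to 5.92 elsewhere. That of 4 glutamatergic markers was 5.05 in association L6b and 5.82 to 6.41 elsewhere. *Camk2a* (2.41) and *Nrgn* (1.82) were lowest in association L6b, and *Slc17a7* and *Neurod6* were not. Of 3 L6a markers, *Tle4* was 2.91 in association L6b and -0.28 to 0.07 elsewhere. *Tbr1* was lowest in association L6b (3.60), and *Foxp2* was below the median in every array. The sum of 5 astrocyte markers lay between 2.77 and 3.45, with *Slc1a3* and *Gja1* above and *Gfap* below the median in every array. The sum of 4 endothelial markers lay between 2.19 and 2.69, with *Cldn5* above and *Flt1* and *Tek* below the median throughout. The part of other cells in the results below was not tested.

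The adhesion genes ranged from a few that differed widely between arrays to others that hardly did. The range, the highest minus the lowest of a gene's 5 signals, was at least 2 log2 (4-fold) in 6 of the 35 genes, or 17.1%, against 9.75% of all genes. These were the type II cadherins *Cdh18* (range 4.83), *Cdh12* (4.49), and *Cdh9* (3.91), the contactin *Cntn6* (3.17), the L1-type gene *Chl1* (2.95), and *Ncam2* (2.14). The next gene in this order was *Pcdh9*, at 1.71. *Cdh9* passed the filter through callosal L5 alone, so a part of its range was built into its selection. The median range was 1.04 over the 35 genes and 0.53 over all genes. The gap was smaller among brighter genes. For genes that reached the 75th percentile of an array in 1 array or more, the median range was 1.14 over 25 of the adhesion genes and 0.98 over 6565 genes, and 24.0% of the former and 17.9% of the latter had a range of at least 2 log2. The shares of all genes at least 2-fold apart between arrays, given below, were not recounted among these brighter genes. At the other end, 17 of the 35 genes (48.6%) stayed within 2-fold over all arrays, against 70.5% of all genes.

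**Figure D1:**
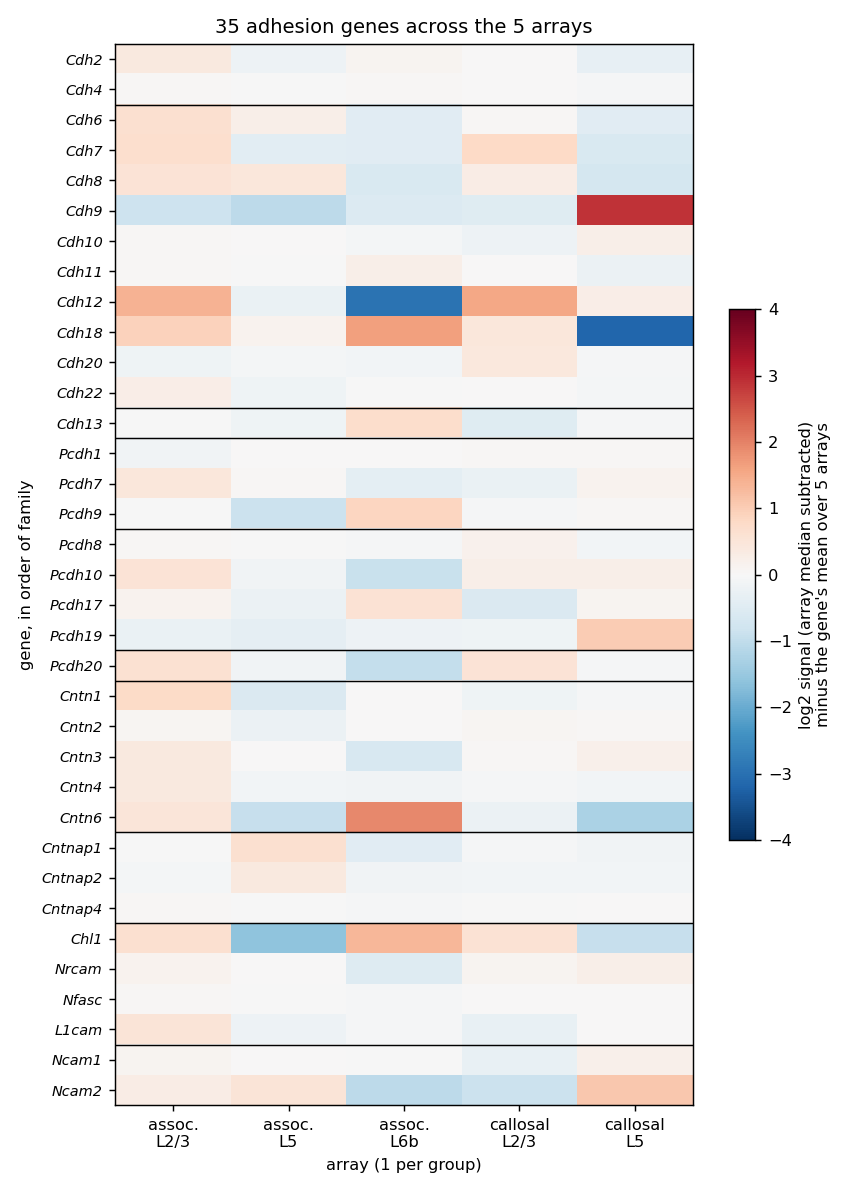
Log2 signal of each of 35 adhesion genes (vertical axis, lines between families) in the 5 arrays (horizontal axis), with the array median subtracted and then the mean of the gene over the 5 arrays (color scale in log2). *Cdh9* stands out in callosal L5 by its high signal and *Cdh18* there by its low one, while *Cdh12* is lowest and *Cntn6* highest in association L6b.

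The region in front of each of the 6 wide-ranging genes is shown because the signals of these genes carry the results that follow, and because some of the genes lie side by side. Each sequence holds the 250 bases before a RefSeq transcript start in the mouse build GRCm38.p6, written from 5′ to 3′. Capitals mark the CCAAT box (CCAAT) and the GC box (GGGCGG), searched on both strands together with the TATA box (TATAAA), with no overlap between them in these windows.
Cdh9 (chr15:16728665-16728914, plus strand): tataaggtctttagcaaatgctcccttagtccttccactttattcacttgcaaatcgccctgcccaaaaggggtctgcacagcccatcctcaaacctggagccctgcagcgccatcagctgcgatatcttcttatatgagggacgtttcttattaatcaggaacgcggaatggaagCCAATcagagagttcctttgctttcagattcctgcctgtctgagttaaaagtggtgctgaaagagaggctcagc
Cdh12 (chr15:21111202-21111451, plus strand): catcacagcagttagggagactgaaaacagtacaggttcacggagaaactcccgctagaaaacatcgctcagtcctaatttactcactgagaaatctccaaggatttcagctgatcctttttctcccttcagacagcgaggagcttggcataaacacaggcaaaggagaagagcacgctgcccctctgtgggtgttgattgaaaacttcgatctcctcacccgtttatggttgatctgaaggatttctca
Cdh18 (chr15:23036213-23036462, plus strand): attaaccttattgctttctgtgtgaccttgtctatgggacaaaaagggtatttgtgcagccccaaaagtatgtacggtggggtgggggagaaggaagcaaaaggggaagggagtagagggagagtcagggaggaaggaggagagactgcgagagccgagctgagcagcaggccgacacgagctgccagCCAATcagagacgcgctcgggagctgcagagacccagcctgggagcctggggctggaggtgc
Chl1 (chr6:103510626-103510875, plus strand): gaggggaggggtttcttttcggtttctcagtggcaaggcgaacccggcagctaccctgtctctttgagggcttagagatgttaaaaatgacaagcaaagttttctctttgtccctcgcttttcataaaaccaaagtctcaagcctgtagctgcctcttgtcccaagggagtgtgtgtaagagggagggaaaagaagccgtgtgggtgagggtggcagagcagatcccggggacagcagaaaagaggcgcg
Cntn6 (chr6:104492794-104493043, plus strand): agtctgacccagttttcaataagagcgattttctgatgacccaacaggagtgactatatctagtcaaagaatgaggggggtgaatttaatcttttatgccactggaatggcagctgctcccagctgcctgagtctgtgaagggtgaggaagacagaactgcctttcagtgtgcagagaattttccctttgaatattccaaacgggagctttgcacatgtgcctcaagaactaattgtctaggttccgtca
Ncam2 (chr16:81200447-81200696, plus strand): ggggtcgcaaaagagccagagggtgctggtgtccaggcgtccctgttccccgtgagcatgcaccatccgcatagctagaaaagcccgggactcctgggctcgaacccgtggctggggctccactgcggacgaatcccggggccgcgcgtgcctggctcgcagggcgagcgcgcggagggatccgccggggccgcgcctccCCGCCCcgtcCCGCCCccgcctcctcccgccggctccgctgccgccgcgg
A CCAAT box lay in the windows of *Cdh9* and *Cdh18*, and 33.8% of all 32851 promoter windows of the same length hold one. The window of *Ncam2* held 2 GC boxes, a motif found in 32.7% of all windows, and no other window of the 6 held any. None of the 6 held TATAAA, which 12.4% of all windows do. *Ncam2* also differed in base composition, with 75.2% G or C and 32 CG dinucleotides, while the other windows had 45.2% to 58.0% and 3 to 8, and the medians over all windows were 52.4% and 6. The windows of *Cdh9* and *Cdh18* shared a run of 13 bases, AGCCAATCAGAGA, which includes the CCAAT box and begins 76 and 64 bases before the start, and which occurs in 31 of all windows (0.0944%). This run was noticed after the sequences were read. All pairs of the 6 windows were compared, and the longest runs of the other pairs had 6 to 9 bases. The share of 0.0944% is that of a run picked for being shared. It does not say how often a pair of windows shares a run of this length. In callosal L5 the signal of *Cdh9* was its highest and that of *Cdh18* its lowest, as described next, and a link to the run was not tested.

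*Cdh18*, *Cdh12*, and *Cdh9* are type II cadherins, whose adhesive domain pairs with the same and with related type II cadherins. *Cdh18* had a signal of 4.99 in association L6b, 4.27 in association L2/3, 3.80 in callosal L2/3, 3.50 in association L5, and 0.16 in callosal L5. It was thus high in 4 arrays and low in 1, and callosal L5 was 10.1-fold below association L5 and 12.5-fold below callosal L2/3. The second probe set of *Cdh18* gave 3.86, 2.82, 2.56, 2.24, and 1.22 in the same order of arrays. The order was the same and the fall to callosal L5 smaller.

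*Cdh9* had the reverse pattern, with 2.62 in callosal L5 and between -1.29 and -0.73 in the other 4 arrays. Callosal L5 was 15.0-fold above association L5 and 10.2-fold above callosal L2/3. All other arrays lay below the array median, so the size of this change rests on dim signals, and *Cdh9* was read by 1 probe set. *Cdh12* had 3.51 in callosal L2/3, 3.37 in association L2/3, 2.23 in callosal L5, 1.69 in association L5, and -0.98 in association L6b. It fell with depth in association neurons, and the L6b signal was 20.4-fold below L2/3 and 6.36-fold below L5. That size too rests on a dim value, below the median of its array.

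**Figure D2:**
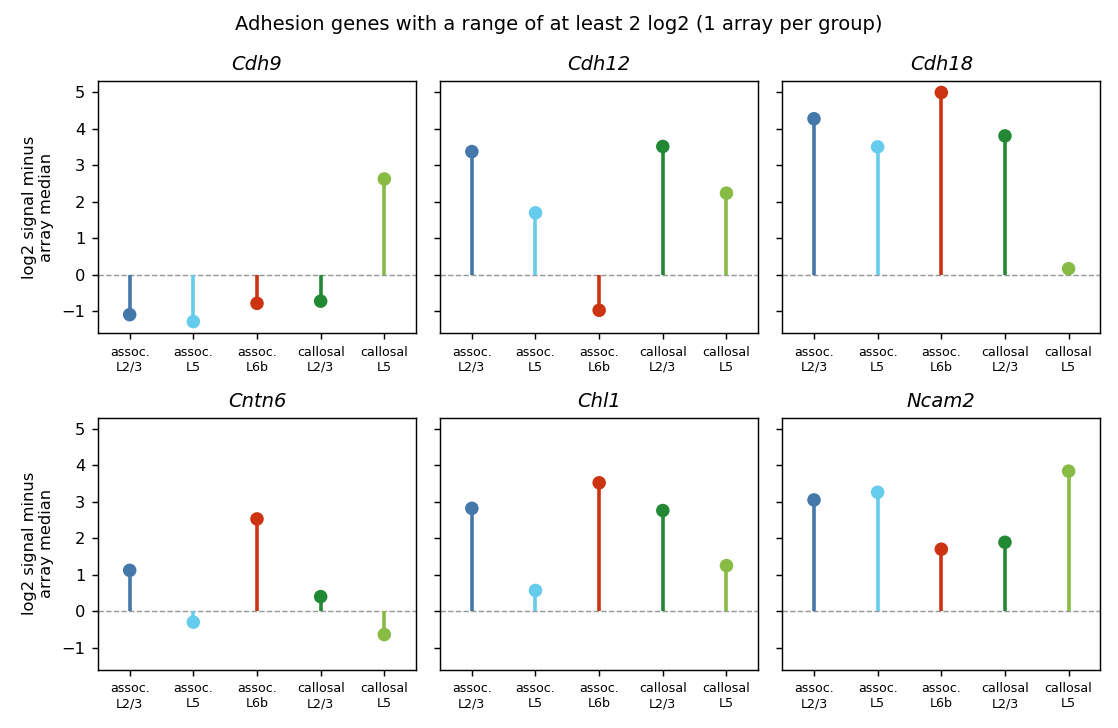
Log2 signal minus the array median (vertical axis) of the 6 adhesion genes with a range of at least 2 log2, 1 point per array (horizontal axis), with a dashed line at the array median. *Cdh9* is above the median in callosal L5 alone (2.62) and *Cdh12* below it in association L6b alone (-0.98).

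The 5 cadherin genes *Cdh6*, *Cdh9*, *Cdh10*, *Cdh12*, and *Cdh18* lie on mouse chromosome 15 in this order in GRCm38.p6, with no protein-coding gene between the first 4 and 1 between *Cdh12* and *Cdh18*. Their patterns were not alike. *Cdh10* stayed between 3.06 and 3.51 in all 5 arrays, next to genes with ranges of 3.91 and 4.49. *Cdh6*, a cadherin of early brain boundaries, ran from 1.57 in association L2/3 and 1.17 in association L5 through 0.97 in callosal L2/3 down to 0.50 in callosal L5 and 0.48 in association L6b.

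Of the remaining type II cadherins, *Cdh7* and *Cdh8* also differed between layers. *Cdh7* had 1.25 in callosal L2/3 and 1.12 in association L2/3, against 0.04 in association L5, -0.01 in association L6b, and -0.16 in callosal L5. Both L2/3 arrays were therefore above all 3 deep arrays. *Cdh8* had 2.25 and 2.16 in L2/3 and L5 of association neurons and 1.98 in callosal L2/3, but 1.08 in association L6b and 0.99 in callosal L5, so the L5 groups of the different projections were 2.25-fold apart. *Cdh11*, *Cdh20*, and *Cdh22* had ranges of 0.43 to 0.58. The classical cadherins varied little. *Cdh2*, which encodes N-cadherin of neuronal and synaptic junctions, had a range of 0.73, and *Cdh4*, which encodes R-cadherin, one of 0.10. *Cdh13*, the gene of T-cadherin, which has a lipid anchor in place of a cytoplasmic tail, was highest in association L6b at 1.16 and lay between -0.01 and 0.46 elsewhere.

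Protocadherins resemble cadherins but lack the catenin-binding tail, and the delta type acts in recognition between axons and in the regulation of actin. *Pcdh9* had 5.15 in association L6b and 3.44 in association L5, with 4.29 in association L2/3 and 4.26 and 4.36 in callosal L2/3 and L5 between them. The L6b signal was 3.27-fold above that of association L5. Its second probe set gave 3.67 in association L6b, 3.32 in association L2/3, 3.29 in both callosal arrays, and 2.71 in association L5. Both probe sets were thus highest in L6b and lowest in association L5, with a difference of 1.71 in the first and 0.96 in the second.

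**Figure D3:**
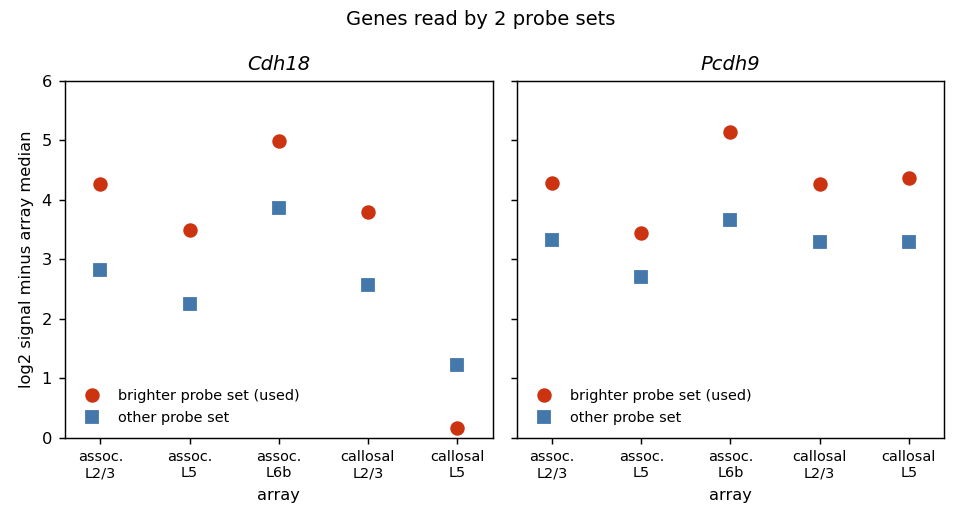
Log2 signal minus the array median (vertical axis) in the 5 arrays (horizontal axis) for *Cdh18* and *Pcdh9*, the genes read by 2 probe sets, with circles for the brighter probe set and squares for the other. In both genes association L6b is highest on either probe set, and callosal L5 is lowest for *Cdh18* (0.16 and 1.22).

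*Pcdh10* and *Pcdh20* ran the other way and were lowest in L6b. *Pcdh10*, which recruits actin regulators at the membrane, had 1.39 in association L6b, 2.12 in association L5, 2.50 in both callosal arrays, and 2.82 in association L2/3. *Pcdh20*, a less studied protocadherin, had -0.96 in association L6b, -0.14 in association L5, -0.06 in callosal L5, 0.56 in callosal L2/3, and 0.60 in association L2/3. Only the L2/3 arrays were above the median for this gene. *Pcdh20* and *Pcdh9* are neighbors on chromosome 14, with no protein-coding gene between them, and were lowest and highest in the same array.

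*Pcdh19*, an X-linked gene known for an epilepsy of early childhood, lay between -0.37 and -0.16 in 4 arrays and was higher in callosal L5, by 2.23-fold over callosal L2/3 and by 2.58-fold over association L5. Like *Cdh9* it passed the array median in callosal L5 alone. *Pcdh17*, which acts at synapses of corticostriatal circuits, had 2.30 in association L6b and 1.16 to 1.87 elsewhere. The delta-1 protocadherin *Pcdh7* had a range of 0.83, with the highest signal in association L2/3 (3.86) and the lowest in L6b (3.03). *Pcdh1* and *Pcdh8* stayed within 0.28 of the lowest signal, close to the array median.

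*Chl1* and *Cntn6* lie next to each other on chromosome 6, and their proteins are known to bind each other and to act on the apical dendrites of deep pyramidal neurons. *Chl1*, the close homolog of L1, had 3.52 in association L6b, 2.82 in association L2/3, 2.76 in callosal L2/3, 1.25 in callosal L5, and 0.57 in association L5. Both L5 arrays were below all others, and association L6b was 7.73-fold above association L5. *Cntn6* had 2.53 in association L6b, 1.12 in association L2/3, 0.40 in callosal L2/3, -0.30 in association L5, and -0.64 in callosal L5. Its L6b signal exceeded every other array by 2.66-fold or more, and again both L5 arrays were lowest, here below the array median. The first 3 arrays came in the same order in both genes.

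*Cntn3* and *Cntn4* belong to the same stretch of chromosome 6. *Cntn3* lay lower in L6b (-0.24) than in the other arrays (0.40 to 0.80), opposite to its neighbor *Chl1*. *Cntn4* had 0.90 in association L2/3 and 0.35 to 0.46 elsewhere. *Cntn1*, whose protein joins axon and myelin beside the node of Ranvier, was 3.48 in association L2/3, 2.73 in association L6b, 2.67 in callosal L5, 2.55 in callosal L2/3, and 2.14 in association L5. The association L2/3 signal was 2.53-fold above that of association L5. *Cntn2*, a contactin of the juxtaparanode, had a range of 0.30.

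The contactin-associated proteins had their highest signals in association L5 for 2 of 3 genes. *Cntnap1*, the axonal partner of *Cntn1* at the paranode, had 1.56 in association L5, 0.48 in association L6b, and 0.78 to 0.90 elsewhere. The signal in L6b was 2.11-fold below that of association L5. *Cntnap2*, whose protein holds Kv1 channels at the juxtaparanode, had 1.89 in association L5 and 1.33 to 1.42 elsewhere. *Cntnap4* had a range of 0.09. Of the 6 myelin markers *Mag* and *Mobp* were highest in association L5, *Mbp* and *Mog* in association L6b, and *Cnp* and *Cldn11* in callosal L5, and their bearing on these genes was not tested.

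In the L1 family, genes other than *Chl1* differed little between arrays. *Nrcam*, a cell adhesion molecule of nodes and initial segments, had 2.86 in association L6b and 3.39 to 3.62 in the others. *L1cam*, which promotes axon growth, had 1.64 in association L2/3 and 0.83 to 1.13 elsewhere. *Nfasc*, the gene of the ankyrin-bound neurofascin, had the same deposited signal in all 5 arrays, so its range of 0.09 comes from the subtraction of the medians alone. Equal deposited signals in at least 2 arrays occurred in 21 of the 35 genes (60.0%) and in 66.7% of all genes past the filter.

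The neural cell adhesion molecules *Ncam1* and *Ncam2* differed in how far they varied. *Ncam2*, known for the sorting of olfactory axons, had 3.84 in callosal L5, then 3.26 and 3.05 for association neurons of L5 and L2/3, 1.89 in callosal L2/3, and 1.70 in association L6b. It was 3.86-fold higher in callosal L5 than in callosal L2/3, whereas the association arrays of these layers were 0.21 log2 apart. *Ncam1*, the carrier of polysialic acid in plastic neurons, lay between 1.46 and 1.95 in all arrays.

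Between L6b and L5 association neurons, as many adhesion genes were higher in L6b as were lower. Signals were at least 2-fold higher in L6b for 4 of 35 genes (11.4%), *Chl1*, *Cntn6*, *Pcdh9*, and *Cdh18*, against 3.50% of all genes. They were at least 2-fold lower for 4 genes (11.4%), *Cdh12*, *Ncam2*, *Cdh8*, and *Cntnap1*, against 7.16% of all genes. Against association L2/3, more genes were lower than higher in L6b, both among the adhesion genes and over all genes. *Cntn6* was the single gene at least 2-fold higher in L6b (2.86%, against 2.83% of all genes), and *Pcdh9* (0.86) joined it at 1.02 with the 75th percentile subtracted. At least 2-fold lower in L6b were 8 genes (22.9%), against 10.6% of all genes, namely *Cdh12*, *Pcdh20*, *Pcdh10*, *Ncam2*, *Cdh8*, *Cdh7*, *Cdh6*, and *Cntn3*. Their differences ran from -4.35 to -1.04, and those of *Cdh6*, *Cdh7*, *Cdh8*, and *Cntn3* lay near the 2-fold limit. With the 75th percentile subtracted *Cdh6*, *Cdh7*, and *Cntn3* fell under 2-fold, and under quantile normalization *Cdh6*, *Cdh8*, and *Cntn3* did. The share of 22.9% is thus smaller in both settings. The median difference over the 35 genes was -0.12, and over all genes it was -0.09. The subtracted array medians were 5.80 in association L6b and 5.71 in association L2/3, so equal deposited signals also give -0.09. *Cdh12*, *Cdh8*, and *Ncam2* were thus at least 2-fold lower in L6b than in both other association groups, and *Cntn6* was at least 2-fold higher than in both.

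**Figure D4:**
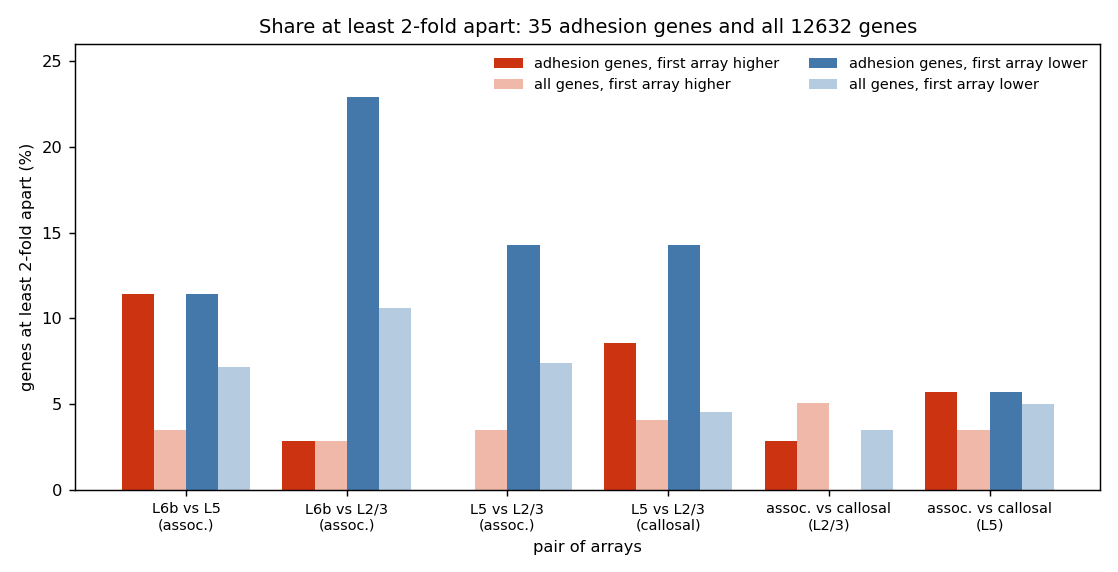
Share in percent (vertical axis) of 35 adhesion genes (dark bars) and of all 12632 genes (pale bars) at least 2-fold higher (red) or lower (blue) in the first than in the second array of 6 pairs (horizontal axis). The highest bar is that of the adhesion genes lower in L6b than in L2/3 of association neurons, 22.9% against 10.6%. Several genes in that bar lay near the 2-fold limit.

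Between L5 and L2/3, 4 adhesion genes were at least 2-fold lower in L5 in both projections. In association neurons *Chl1*, *Cdh12*, *Cntn6*, *Cntn1*, and *Cdh7* were at least 2-fold lower in L5 (14.3%, against 7.36% of all genes). None was at least 2-fold higher (0 of 35 genes, against 3.48%). In callosal neurons *Cdh18*, *Chl1*, *Cdh7*, *Cdh12*, and *Cntn6* were at least 2-fold lower (14.3%, against 4.52% of all genes), and *Cdh9*, *Ncam2*, and *Pcdh19* at least 2-fold higher (8.57%, against 4.08%). *Cdh9* and *Pcdh19* passed the filter through callosal L5 alone, so the share of higher genes was partly built in. The association and callosal comparisons share no array. The 4 genes at least 2-fold lower in L5 in both were *Cdh7*, *Cdh12*, *Cntn6*, and *Chl1*, with differences of -1.08 to -2.25 in association and of -1.04 to -1.51 in callosal neurons. They make 11.4% of the 35 genes, and 0.918% of all genes (116) were at least 2-fold lower in L5 in both. With the 75th percentile subtracted the association difference of *Cdh7* was -0.98, so *Cdh7* left this set. The callosal difference of *Cntn6* then stood at the 2-fold limit. None of the 35 genes was 2-fold apart in opposite directions, as were 0.895% of all genes (113), a share of less than 1 gene in 35. Across the 35 genes, which are not replicates, the layer differences had a Pearson correlation of 0.44, and across all genes one of 0.09. Each L2/3 array and each L5 array differed also in the layer and myelin markers given above.

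**Figure D5:**
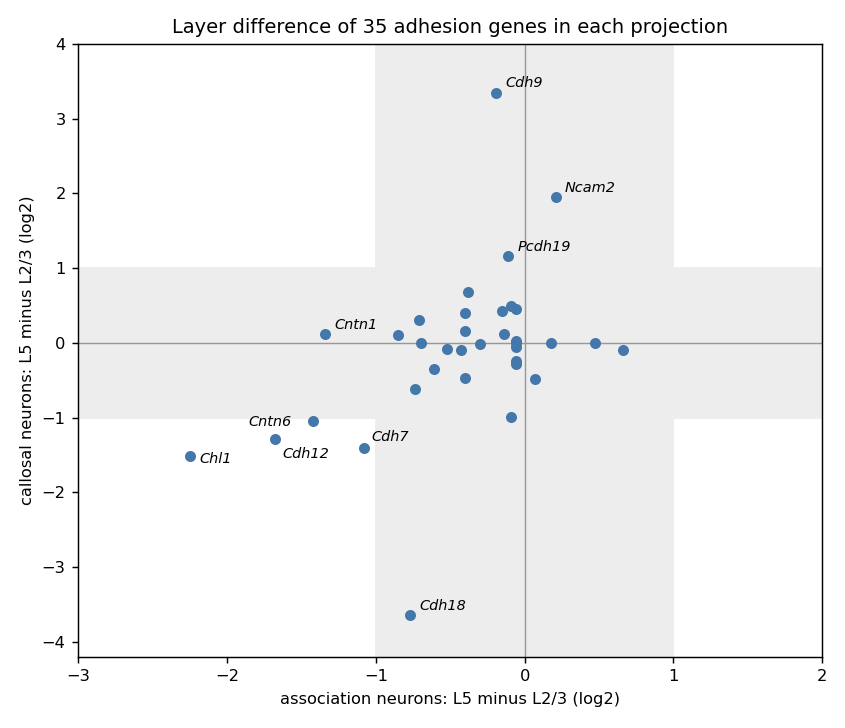
Log2 difference between L5 and L2/3 of 35 adhesion genes in association neurons (horizontal axis) and in callosal neurons (vertical axis), 1 point per gene, with a gray band for less than 2-fold in that axis. *Chl1*, *Cdh12*, *Cntn6*, and *Cdh7* lie at the lower left, while *Cdh9*, *Ncam2*, *Pcdh19*, and *Cdh18* are at least 2-fold apart on the callosal axis alone.

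Association and callosal neurons were at least 2-fold apart in 1 adhesion gene in L2/3 and in 4 in L5. In L2/3, *Ncam2* alone was at least 2-fold higher in association neurons (2.86%, against 5.07% of all genes), by 1.16 log2, and 0 genes were at least 2-fold lower (against 3.48%). In L5, *Cdh18* and *Cdh8* were at least 2-fold higher in association neurons (5.71%, against 3.49% of all genes), and *Cdh9* and *Pcdh19* at least 2-fold lower (5.71%, against 4.97%). Since *Cdh9* and *Pcdh19* passed the filter through callosal L5 alone, a difference was built into that share. No adhesion gene was at least 2-fold apart between the projections in both layers, and 1.64% of all genes (207) were, a share of less than 1 gene in 35. In callosal L5, *Cdh18* was also low and *Cdh9* and *Pcdh19* high against each other array. For *Cdh8*, association L6b (1.08) was as low as callosal L5 (0.99).

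Set against each of the other 4 arrays, 5 adhesion genes stood at least 2-fold apart in a single array. In callosal L5 *Cdh9* and *Pcdh19* were higher (5.71%, against 1.31% of all genes) and *Cdh18* was lower (2.86%, against 0.356%). *Cdh9* and *Pcdh19* passed the filter through callosal L5 alone, so a higher signal there was built into their selection. In association L6b *Cntn6* was higher (2.86%, against 1.26%) and *Cdh12* lower (2.86%, against 2.82%). No adhesion gene stood apart in the other 3 arrays. Of all genes, association L2/3 was higher for 2.34% and lower for 0.158%, association L5 for 1.31% and 0.823%, and callosal L2/3 for 1.67% and 0.451%. With 35 genes, a single gene makes 2.86%, so shares of this size are not told apart from those of all genes.

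Over all 35 genes, whatever the size of their differences, the highest and lowest arrays were also counted. As deposited, the highest of the 5 signals was that of association L2/3 in 11 of the 35 genes (31.4%, against 17.2% of all genes) and the lowest in 2 (5.71%, against 25.4%). Callosal L5 gave the lowest signal in 10 genes (28.6%, against 13.9%), among them both classical and 5 of the 10 type II cadherins. Association L6b was highest in 9 genes (25.7%, against 26.6%) and lowest in 8 (22.9%, against 17.4%). Genes whose extreme signal was shared by several arrays are in none of these counts.

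Partner genes inside the cell were examined next, and over all genes 9.75% had a range of at least 2 log2 and the median range was 0.53. Of 15 catenins and other cytoplasmic partners past the filter, 1 had a range of at least 2 log2. It was *Pkp4*, a relative of p120-catenin, with 2.80 in association L2/3, 2.39 in association L6b, 1.66 in callosal L5, 1.12 in callosal L2/3, and 0.70 in association L5. *Ctnna2*, the neuronal alpha-catenin that ties cadherins to actin, stood at 0.13 in association L6b, against 1.42 to 1.86 elsewhere. The median range of this group was 0.81, and *Epb41l3*, a scaffold of the paranode, and *Ctnnd2*, a neuronal delta-catenin, had 1.02 and 0.88.

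Among 11 ligands, proteases, and modifying enzymes the median range was 1.21, against 0.53 over all genes. Of the 11, 3 were at least 2-fold lower in L6b than in association L2/3, against 10.6% of all genes. In callosal neurons 4 of the 11 were at least 2-fold higher in L5 than in L2/3, against 4.08% of all genes. Among them *Ptprz1* lay above the median in callosal L5 alone (0.35) and passed the filter through it. A difference was thus built into its selection and into this share. *Adam23*, a receptor of the secreted protein Lgi1, had 0.80 in association L6b and 2.85 to 3.44 elsewhere, the widest range of this group (2.64). *Ptprg*, a receptor phosphatase that binds contactins, had 2.01 in callosal L5 and 0.36 to 0.68 elsewhere. *Adam10*, the protease that sheds N-cadherin, had 2.35 in callosal L5, 2.29 in association L2/3, and 0.84 to 0.99 in the rest. *Aplp2*, of the amyloid precursor family, had a range of 1.44, from 3.36 in callosal L2/3 to 4.80 in callosal L5.

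Other cadherins and immunoglobulin-type genes were examined likewise. Of 12 other cadherin superfamily genes past the filter none had a range of at least 2 log2, against 9.75% of all genes. *Pcdh11x*, a delta-1 protocadherin, was the widest at 1.76, with 1.84 in callosal L2/3 and 0.08 in association L5, followed by *Clstn3* (1.06), *Fat3* (0.96), and *Clstn2* (0.71). *Fat3* was read by 15 probe sets, of which the brightest was used. Of 21 immunoglobulin-type and contactin-associated genes 2 reached 2 log2, a share close to the 9.75% of all genes. They were *Nectin3*, an adhesion protein of contacts between unlike cells, with 3.41 and 3.15 in association and callosal L2/3 and 0.49 to 1.71 in the deep arrays, and *Cntnap5a*, with -0.58 in association L6b and 1.21 to 1.59 elsewhere. *Alcam* and *Cntnap5b* followed at 1.85 and 1.76.

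Clustered protocadherins give single neurons an identity code by choice among many promoters, and their probe sets may share targets, since the genes are close copies. Of 22 beta-type genes 9 passed the filter, and 3 of them had a range of at least 2 log2, against 9.75% of all genes. *Pcdhb17* had 3.04 in callosal L2/3 and -0.57 to 1.26 elsewhere, *Pcdhb19* had 1.69 in association L2/3 and -1.16 to -0.62 elsewhere, and *Pcdhb11* had 0.90 in callosal L5 and -1.25 to -0.62 elsewhere. *Pcdhb19* and *Pcdhb11* were above the median in 1 array alone and passed the filter through it, so a difference was built into their selection. *Pcdhb16* followed at 1.03.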

How the data were processed

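Signals of S1 neurons were read on 5 arrays, 1 each for association L2/3, L5, and L6b and callosal L2/3 and L5. The authors deposited a table of log2 signals for 35556 probe sets. Submitters' processing notes credit Affymetrix Expression Console, version and summary method not given in the sources used here. Values range from 1.11 to 14.2, from which the log2 scale was taken. The depth of an array has no count, and the number of arrays limits the precision.

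Platform annotation gave 1 symbol to 21789 probe sets, several to 1621, and none here to 12146. The median of each array was subtracted, the probe set with the highest mean stood for a gene, and genes that reached this median on any array were kept. Calls were at least 2-fold. The adhesion genes and all lists were chosen with earlier results of these data known. Genes with a range of at least 2 log2 and the 4 widest of each partner list are given array by array, and others by family. The 13-base run and chromosome neighbors were chosen after values were seen. Some listed partner and marker genes are not reported here. Promoters came from RefSeq (GRCm38.p6), which had entries for 29 of the 37 genes. The steps were tested on simulated data. Python 3.11.15, pandas 2.3.3, NumPy 2.4.6, and Matplotlib 3.10.9 were used. Alternatives were 3 other scalings, the mean over probe sets, 2 other filters, a 4-fold limit, and leaving out each array.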

Additional observations from a re-analysis of the deposited data

Results flagged for a closer look

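In *Ncam2* and *Cntn1* the difference between association and callosal neurons ran in opposite directions in L2/3 and L5, by at least 0.5 log2 each way. For *Ncam2* association minus callosal was 1.16 in L2/3 and -0.58 in L5. For *Cntn1* it was 0.93 in L2/3 and -0.53 in L5. With 1 array per group, the difference between the layers was not tested in either gene.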

How the results depend on the processing

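No paired analysis was possible because each group has 1 array. Each of 35 differences of at least 2-fold between pairs of arrays kept its sign under each of 6 other scalings, probe set rules, and filters that gave it a value. As deposited 34 of them remained at least 2-fold, with the 75th percentile subtracted 31, under quantile normalization 32, with the mean over probe sets 35, and without a filter 35. With the filter at the 75th percentile 31 remained and 4 belonged to genes left out. A filter only leaves genes out, so the 2 filter settings could not alter a difference. The mean over probe sets could alter only the differences of *Cdh18* and *Pcdh9*, the genes read by 2 probe sets. The differences that fell below 2-fold were those of *Cdh6*, *Cdh7*, *Cdh8*, and *Cntn3*, from -0.88 to -0.98. With the 75th percentile subtracted the difference of *Pcdh9* between L6b and association L2/3 passed 2-fold, at 1.02 in place of 0.86, and no other setting of these 6 added a difference. The median range of 1.04 became 0.88 with the 75th percentile subtracted and 0.83 with no filter. It was 0.69 without association L2/3, 0.83 without association L5, 0.70 without association L6b, 0.83 without callosal L2/3, and 0.81 without callosal L5. The 6 genes with a range of at least 2 log2 became 3 without association L6b and 3 without callosal L5. The 3 genes higher than in each other array became 6 without association L2/3, 5 without callosal L2/3, and 1 without callosal L5, and the 2 lower genes became 5 without association L5. Each of these follows from comparing fewer arrays. At 4-fold, 1 gene was higher than in each other array. The pairs then had 3 genes apart between L6b and L5 (8 at 2-fold), 1 between L6b and L2/3 of association neurons (9), 1 between L5 and L2/3 of association (5) and 2 of callosal neurons (8), 0 between the projections in L2/3 (1), and 2 in L5 (4). Under quantile normalization 5 adhesion genes reached a range of 2 log2, in place of 6, and 0 of the cytoplasmic partners did, in place of 1. Signals below the array median limit the sizes given for *Cdh7*, *Cdh9*, *Cdh12*, *Cntn3*, *Cntn6*, *Pcdh19*, and *Pcdh20*.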

Other observations

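The 3 probe sets that the annotation gives to *Cdh11* together with 2 RIKEN-named genes were not used above. The brightest of them had 5.33 in association L2/3, 4.81 in callosal L2/3, 4.78 in association L5, 4.50 in callosal L5, and 4.32 in association L6b, and the others had ranges of 0.73 and 0.27. The probe set of *Cdh11* alone ran differently, with its highest signal in association L6b (2.90) and its lowest in callosal L5 (2.44). Which gene the shared probe sets read was not tested.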
